A study of Homo sapiens with 45 samples.

Results

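Polycomb repressive complex 1 (PRC1) was followed through 9 of its subunit genes, RING1, RNF2, PCGF1, PCGF2, PCGF3, BMI1 (also called PCGF4), PCGF5, PCGF6 and CBX8. They were chosen by symbol, with earlier results of these data known. All 9 are among the 28278 gene names of the table of 8 RNA libraries and among the 27135 names of the tables of 2 further control libraries. The cells were HCT116, an established human colon cancer line. They received nontargeting siRNA (siNTC5), nontargeting siRNA of the libraries named Scramble, or siRNA against HNRNPK, each at 25 nM for 72 hours. There were 4 siNTC5, 4 HNRNPK siRNA and 2 Scramble libraries. Replicates 1 and 2 of the siNTC5 and HNRNPK groups were made with a TruSeq stranded mRNA kit and replicates 3 and 4 with a Ligation kit of the same maker, both after Maxwell purification. The Scramble libraries were made with the TruSeq kit after RNeasy purification and were counted in tables of their own. The study also held 35 chromatin immunoprecipitation or input libraries from the same line, given here as 7 lists of called domains for lamin B1, H3K9me2, H3K9me3 and H3K27me3. Nothing in the labels says that the libraries of a group came from separate cultures, so p-values measure the spread between these libraries.

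PRC1 places ubiquitin on histone H2A and takes part in keeping developmental genes silent. Each complex joins a RING1 or RNF2 (RING1B) enzyme subunit to a single PCGF protein. Complexes with PCGF2 or BMI1 and a CBX protein are called canonical, because the CBX chromodomain binds H3K27me3, and complexes with PCGF1, PCGF3, PCGF5 or PCGF6 hold RYBP or YAF2 instead. HNRNPK is an RNA-binding protein that prefers runs of C, and it is known to connect Xist RNA with the PCGF3 and PCGF5 complexes.

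Promoters from the RefSeq table (GRCh38.p14; 250 bases before and 50 after the start site) matched 8 of the 9 genes, and CBX8 had no entry. The 4 shown are those of the subunits described most closely below that have an entry: RNF2, which fell, PCGF3 and PCGF1, which were higher, and PCGF6, which was lower at the edge of the threshold. Each is written 5′ to 3′ on the gene's strand, and capitals mark the C-rich letters CCCTCCC or their reverse complement GGGAGGG, which were searched on both strands with overlapping matches counted.
RNF2, chr1:185045308-185045607, plus strand: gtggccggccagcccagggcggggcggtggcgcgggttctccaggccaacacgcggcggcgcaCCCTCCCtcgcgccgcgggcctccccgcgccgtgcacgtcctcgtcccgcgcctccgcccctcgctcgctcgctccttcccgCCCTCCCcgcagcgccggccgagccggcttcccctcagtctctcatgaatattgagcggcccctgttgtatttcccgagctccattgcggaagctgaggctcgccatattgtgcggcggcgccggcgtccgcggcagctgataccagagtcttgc
PCGF3, chr4:705582-705881, plus strand: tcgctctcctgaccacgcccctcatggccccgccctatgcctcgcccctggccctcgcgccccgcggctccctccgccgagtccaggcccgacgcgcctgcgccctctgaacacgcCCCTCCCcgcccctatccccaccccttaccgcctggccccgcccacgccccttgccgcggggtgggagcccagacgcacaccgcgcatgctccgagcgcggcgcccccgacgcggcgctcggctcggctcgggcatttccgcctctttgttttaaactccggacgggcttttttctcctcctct
PCGF1, chr2:74507646-74507945, minus strand: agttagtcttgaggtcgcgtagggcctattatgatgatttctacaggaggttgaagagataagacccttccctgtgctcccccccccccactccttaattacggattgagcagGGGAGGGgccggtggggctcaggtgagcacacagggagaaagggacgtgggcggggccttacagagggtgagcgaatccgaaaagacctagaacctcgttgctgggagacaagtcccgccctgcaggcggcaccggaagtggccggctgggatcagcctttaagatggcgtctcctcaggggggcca
PCGF6, chr10:103351091-103351390, minus strand: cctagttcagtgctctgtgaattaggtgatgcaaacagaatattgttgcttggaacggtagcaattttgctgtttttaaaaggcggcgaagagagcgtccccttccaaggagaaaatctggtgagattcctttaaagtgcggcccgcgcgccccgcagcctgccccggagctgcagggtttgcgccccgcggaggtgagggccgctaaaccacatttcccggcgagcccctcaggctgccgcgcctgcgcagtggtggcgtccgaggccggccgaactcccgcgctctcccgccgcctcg
RNF2 held 2 matches, PCGF3 and PCGF1 held 1 each, and PCGF6 held 0. Of the subunits not shown, BMI1 held the most, 5 and 2 in its 2 promoters, PCGF5 held 1 in 1 of its 4 promoters, and RING1 and PCGF2 held 0. Over all 35116 promoters of the table, 26.6% held at least 1 match. The promoters of RNF2 and PCGF3 carried 41 and 38 CpG dinucleotides, PCGF6 carried 28 and PCGF1 carried 14, against a median of 14 over all promoters. A match is a description of these letters and not a binding site.

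The targeted transcript was measured first. HNRNPK stood at 940, 976, 825 and 816 CPM in siNTC5 replicates 1 to 4 (CPM is counts per 1000000, with library sizes scaled by the trimmed mean of M values) and at 249, 222, 156 and 162 CPM in the HNRNPK siRNA libraries. All 4 knockdown libraries lay below all 4 controls, at 21.9% of the control level (log2 fold change -2.19 ± 0.06 SE, edgeR quasi-likelihood test with Benjamini-Hochberg adjustment, adjusted p = 2.21e-15). With all 10 libraries fitted together, HNRNPK after knockdown was at 26.7% of the Scramble level (edgeR adjusted p = 7.32e-14). HNRNPK was also lower in Scramble than in siNTC5, with overlapping groups (log2 difference -0.28 ± 0.08 SE, edgeR adjusted p = 0.00421). Total counts ran from 14810376 to 23633851 in siNTC5, from 12107280 to 15255556 after HNRNPK siRNA and from 55007171 to 59209169 in Scramble. Of 7 colon epithelial markers, 6 were tested and VIL1 was below the filter on low counts. KRT18 (log2 fold change 1.39), KRT8 (0.97), EPCAM (0.65) and CDH1 rose, KRT19 fell by 1.29, and CDX2 stood at 12.1 ± 1.24 CPM in siNTC5 and 12.0 ± 2.11 CPM after knockdown (SD, n = 4). The summed level of these 7 markers ran from 2719.2 to 3122.3 CPM in siNTC5 and from 4387.0 to 5385.3 CPM after knockdown. In a fit of all 10 libraries, the 6 tested markers were all also higher in Scramble than in siNTC5 (median log2 difference 0.52). Against Scramble, 3 of them were higher after knockdown, 2 were lower and 1 did not pass (median 0.14). Of 6 markers of other cells, PTPRC, COL1A2, PECAM1 and ALB stayed under 1 CPM in every library, COL1A1 rose by 0.67 and ACTA2 fell by 1.40 on the log2 scale. The change of ACTA2 was -2.34 in the Ligation libraries and -0.54 in the TruSeq libraries, where it did not pass (edgeR adjusted p = 0.143). The summed level of those 6 markers moved from a range of 47.5 to 77.8 CPM to a range of 77.0 to 122.5 CPM. Their part in the results below was not tested, and in these bulk libraries fewer cells of a type and less RNA per cell cannot be told apart.

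The comparison of HNRNPK siRNA with siNTC5 asks whether depletion of HNRNPK changed the transcripts of the complex. RNF2, the E3 ligase subunit that most PRC1 forms can use, fell to 69.1% of the control level, and PCGF3 rose to 121%. PCGF1 was higher (116%), and CBX8 (82.7%) and PCGF6 (89.1%) were lower, with overlapping groups. PCGF5 and BMI1 did not pass the test, and RING1 and PCGF2 were listed at 0 in all 8 libraries and could not be tested. In counts, 7 of the 9 genes were tested and 5 passed an adjusted p of 0.05, 2 higher and 3 lower. The background was broad: 70.7% of the 14578 tested genes passed, 34.6% higher and 36.1% lower, so 5 of 7 is near the share of all genes. The median log2 fold change of the 7 was -0.17 against -0.01 over all tested genes.

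Among the enzyme subunits, RNF2 stood at 63.4, 59.5, 55.0 and 51.5 CPM in siNTC5 replicates 1 to 4 and at 42.7, 42.5, 39.3 and 33.9 CPM after HNRNPK siRNA. Every knockdown library was below every control library. The log2 fold change was -0.53 ± 0.06 (SE; 95% interval -0.66 to -0.40; edgeR quasi-likelihood test, adjusted p = 2.56e-07). It was -0.51 within the TruSeq libraries and -0.53 within the Ligation libraries, and it passed the threshold in all 17 alternatives run. RNF2 and PCGF3 were the subunits whose groups did not overlap, 2 of 7, where 55.4% of all tested genes did not overlap.

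RING1, the other enzyme subunit, held 0 counts in each of the 8 libraries, and so did PCGF2, the canonical subunit also known as MEL18. A count of 0 allows up to 3 counts in a library, which is 0.127 to 0.248 CPM at these depths and covers counting error only. Both genes were counted in the Scramble libraries, RING1 with 3281 and 2944 counts (65.7 and 63.8 CPM) and PCGF2 with 1747 and 1480 counts (35.0 and 32.1 CPM). Of the 25527 names shared by the tables, 184 were at 0 in all 8 libraries while holding at least 100 counts in both Scramble libraries, and 2 names showed the reverse. Within 500 kb of RING1 on chromosome 6, 5 of 26 names with such counts in Scramble were at 0 in the 8 libraries (CUTA, HLA-DMA, PFDN6, PSMB9 and ZBTB22), and within 500 kb of PCGF2 on chromosome 17 there were 0 of 14. The cause of these zeros was not tested, and they give no measure of RING1 or PCGF2 in siNTC5 or knockdown cells.

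PCGF3, the PCGF protein of a form that carries AUTS2-type partners and casein kinase 2, stood at 118, 110, 132 and 127 CPM in siNTC5 and at 143, 148, 148 and 149 CPM after HNRNPK siRNA. All 4 knockdown libraries were higher than all 4 controls, and they lay closer together (SD 2.74 against 9.81 CPM). The log2 fold change was 0.28 ± 0.05 (SE; 95% interval 0.18 to 0.38; edgeR quasi-likelihood test, adjusted p = 3.26e-05). It passed the threshold in all 17 alternatives, with 0.38 in the TruSeq libraries and 0.21 in the Ligation libraries. PCGF3 overlaps the antisense genes PCGF3-AS1 and PCGF3-AS2 in RefSeq, and whether counting used strand is not given in the sources used here, so their reads cannot be told apart from its own.

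PCGF5, its closest relative, stood at 78.5, 77.8, 67.6 and 67.2 CPM in siNTC5 and at 79.9, 76.8, 72.5 and 74.2 CPM after knockdown. The groups overlapped, and libraries of the same kit lay together. Its log2 fold change was 0.06 ± 0.05 (SE), with a 95% interval of -0.04 to 0.17 and an adjusted p of 0.282 by edgeR's quasi-likelihood test. With upper-quartile scaling it became 0.12 and passed (adjusted p = 0.0378).

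PCGF1, the subunit of the BCOR and KDM2B complex, stood at 29.3, 29.6, 20.8 and 23.8 CPM in siNTC5 and at 29.0, 31.5, 27.5 and 32.1 CPM after knockdown. The TruSeq controls lay among the knockdown libraries, and the Ligation controls lay below all of them. The log2 fold change was 0.22 ± 0.09 (SE; edgeR quasi-likelihood test, adjusted p = 0.0337). It was 0.06 (adjusted p = 0.650) in the TruSeq libraries and 0.42 (adjusted p = 0.000260) in the Ligation libraries. The call ended without any of siNTC5 replicates 3 and 4 and HNRNPK siRNA replicates 2, 3 and 4, where the fold change ran from 0.13 (without HNRNPK siRNA replicate 4) to 0.22 and the adjusted p from 0.0562 to 0.192. PCGF1 overlaps LBX2-AS1, which rose by 1.21 on the log2 scale.

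PCGF6, the subunit of the E2F6 and MGA complex, stood at 34.0, 34.5, 31.2 and 26.8 CPM in siNTC5 and at 31.0, 31.7, 26.7 and 23.3 CPM after knockdown. Within each kit both knockdown libraries were below both controls, but over the kits the groups overlapped. The difference was -0.17 ± 0.07 on the log2 scale (SE), with an adjusted p of 0.0495 by edgeR's quasi-likelihood test. It passed in 5 of the 17 alternatives, and leaving out siNTC5 replicate 2 or 3 or HNRNPK siRNA replicate 1, 2 or 4 ended the call, at adjusted p values of 0.0546 to 0.211.

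Of the canonical subunits, CBX8, a chromodomain protein, stood at 28.4, 21.3, 26.9 and 28.1 CPM in siNTC5 and at 18.9, 19.5, 23.4 and 24.8 CPM after knockdown. Replicate 2 of siNTC5 lay inside the knockdown range, and the other 3 controls lay above it. The log2 fold change was -0.27 ± 0.09 (SE; edgeR quasi-likelihood test, adjusted p = 0.0103). It was -0.34 (adjusted p = 0.0595) in the TruSeq libraries and -0.18 (adjusted p = 0.0831) in the Ligation libraries, and without siNTC5 replicate 1 it was -0.18 (adjusted p = 0.0507).

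BMI1, the other canonical PCGF protein, was counted 31, 49, 47 and 32 times in siNTC5 and 22, 24, 22 and 20 times after knockdown. In CPM these were 1.85, 2.06, 3.14 and 1.76 against 1.44, 1.78, 1.84 and 1.63, and the groups overlapped. A log2 fold change of -0.38 ± 0.24 (SE; 95% interval -0.88 to 0.12; edgeR quasi-likelihood test, adjusted p = 0.160) was estimated, and a difference was not detectable at this depth. Without siNTC5 replicate 3, the highest library, the estimate was -0.18. BMI1 lies inside the readthrough gene COMMD3-BMI1, which held 0 counts in all 10 libraries, and reads shared between overlapping genes make its level uncertain.

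**Figure D1:**
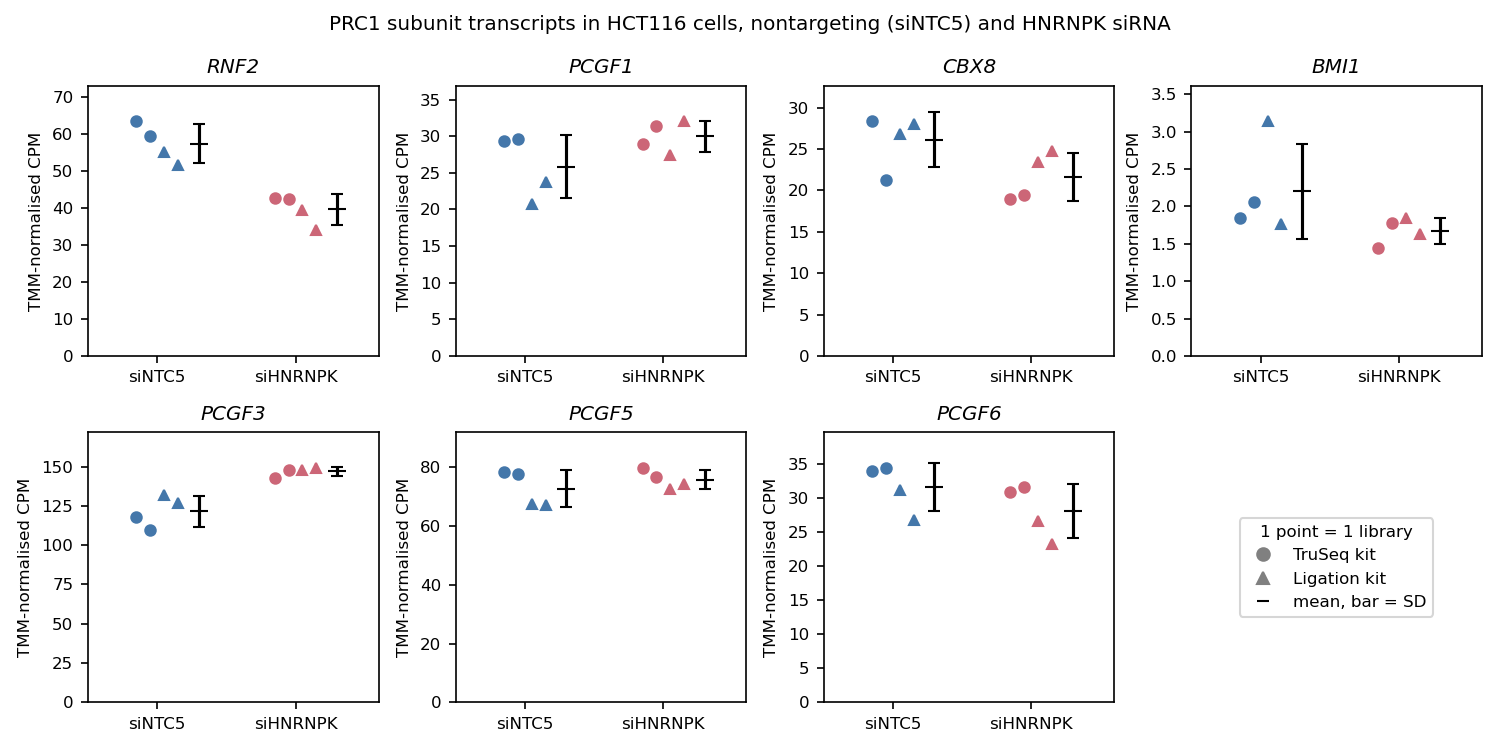
TMM-normalised CPM (y axes, from 0) of 7 PRC1 subunits in the 4 siNTC5 and 4 HNRNPK siRNA libraries, with 1 point per library, circles for the TruSeq kit, triangles for the Ligation kit, and the mean with its SD beside them. RNF2 (33.9 to 42.7 against 51.5 to 63.4 CPM) and PCGF3 (143 to 149 against 110 to 132 CPM) are the panels without overlap.

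The kit by treatment term asks whether a subunit's knockdown effect differed between the kits. It passed for 0 of the 7 tested subunits by edgeR's quasi-likelihood test, and 1 of them, PCGF1, had an unadjusted p under 0.05. Over all genes 0.137% passed (20 of 14578), and 1677 had an unadjusted p under 0.05. The difference for PCGF1 between the kits was 0.38 ± 0.15 on the log2 scale (SE; adjusted p = 0.331 by edgeR).

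**Figure D2:**
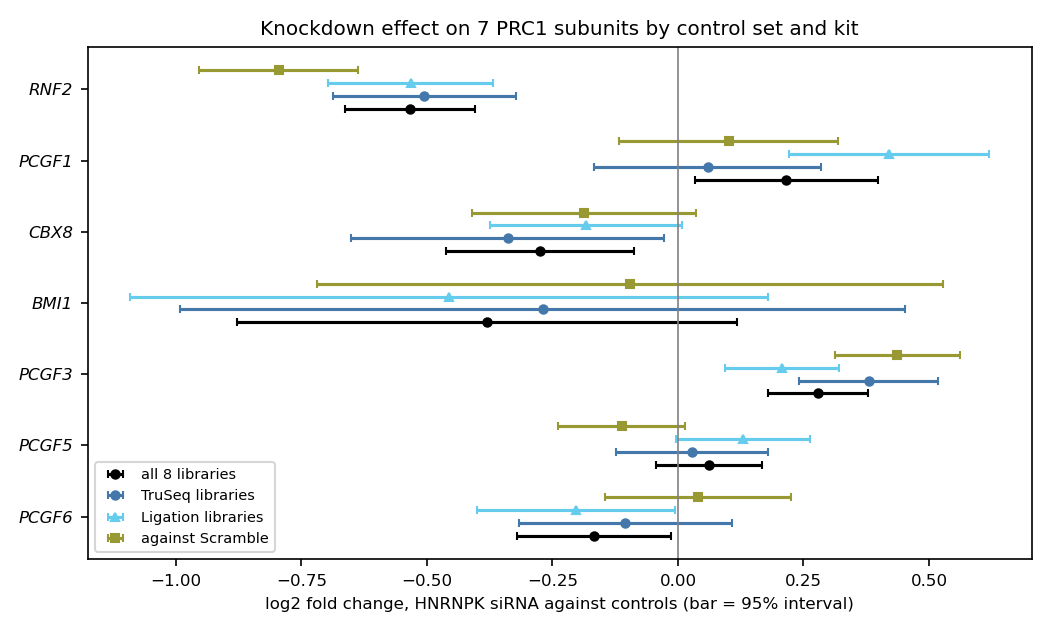
Log2 fold change after HNRNPK siRNA (x axis) with 95% intervals for 7 PRC1 subunits (y axis), over all 8 libraries, within each kit against siNTC5, and against the Scramble controls. RNF2 lies below 0 and PCGF3 above 0 in all 4 estimates, while PCGF1 ranges from 0.06 in TruSeq to 0.42 in Ligation libraries.

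The Scramble libraries gave a second set of nontargeting controls, with other purification and other count tables, which cannot be told apart from the siRNA itself. In a fit of all 10 libraries, 69.3% of 14642 genes differed between Scramble and siNTC5 and 81.2% between knockdown and Scramble. Against siNTC5, 6 of the 9 subunits passed, and RING1 and PCGF2 did so only through their zeros. RNF2 was at 70.1 and 77.3 CPM in Scramble, above all 4 siNTC5 libraries (log2 difference 0.27 ± 0.07 SE; edgeR adjusted p = 0.00332). PCGF5 was at 83.6 and 89.4 CPM, also above all siNTC5 libraries (0.18 ± 0.06; edgeR adjusted p = 0.0109). Both calls ended without Scramble replicate 2 (adjusted p = 0.0599 and 0.125) and with upper-quartile scaling (adjusted p = 0.114 and 0.495). PCGF3 was at 105 and 105 CPM, below all siNTC5 libraries, with a log2 difference of -0.15 (edgeR adjusted p = 0.0321). PCGF6 was at 28.9 and 31.2 CPM, with a difference of -0.20 (edgeR adjusted p = 0.0489). The PCGF3 call ended when any of 9 of the 10 libraries was left out, the exception being siNTC5 replicate 2, at adjusted p values of 0.0548 to 0.123. The PCGF6 call ended when any of 8 of the 10 was left out, the exceptions being siNTC5 replicate 4 and HNRNPK siRNA replicate 3, at adjusted p values of 0.0525 to 0.280. PCGF1, BMI1 and CBX8 did not pass, with differences of 0.12, -0.28 and -0.08. BMI1 was at 0.00 without Scramble replicate 1 and at -0.59 without Scramble replicate 2. CBX8 turned to 0.08 without siNTC5 replicate 1 and was at -0.18 without siNTC5 replicate 2. PCGF1 ran from 0.07 without Scramble replicate 1 to 0.19 without siNTC5 replicate 2, and was at -0.01 with upper-quartile scaling.

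Against Scramble, 4 of the 9 subunits passed after knockdown, again including RING1 and PCGF2 through their zeros, and 6 passed with upper-quartile scaling and 6 with no filter. RNF2 was lower by -0.79 ± 0.08 (log2, SE; edgeR adjusted p = 1.74e-08), and PCGF3 was higher by 0.44 ± 0.06 (edgeR adjusted p = 2.18e-06). In both genes the 4 knockdown libraries lay outside the 2 Scramble libraries, as they did outside siNTC5. The knockdown libraries serve in both comparisons, so these are values side by side and not independent results. PCGF5 was at -0.11 (95% interval -0.24 to 0.01), CBX8 at -0.19 (-0.41 to 0.04), PCGF1 at 0.10 (-0.12 to 0.32) and PCGF6 at 0.04 (-0.14 to 0.22). Upper-quartile scaling moved the median of all genes in this comparison by 0.18, and by -0.14 in that of Scramble with siNTC5. With it PCGF1 (0.29, edgeR adjusted p = 0.0145) and PCGF6 (0.22, 0.0274) passed, PCGF5 turned to 0.07 and CBX8 was at 0.00. With no filter PCGF5 (-0.17, edgeR adjusted p = 0.0379) and CBX8 (-0.24, 0.0328) passed, and CBX8 also passed without siNTC5 replicate 1 (-0.25, 0.0115). BMI1 was at -0.10, at -0.38 without Scramble replicate 1 and at 0.21 without Scramble replicate 2. PCGF6 turned to -0.02 and PCGF5 was at -0.17 without Scramble replicate 1.

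**Figure D3:**
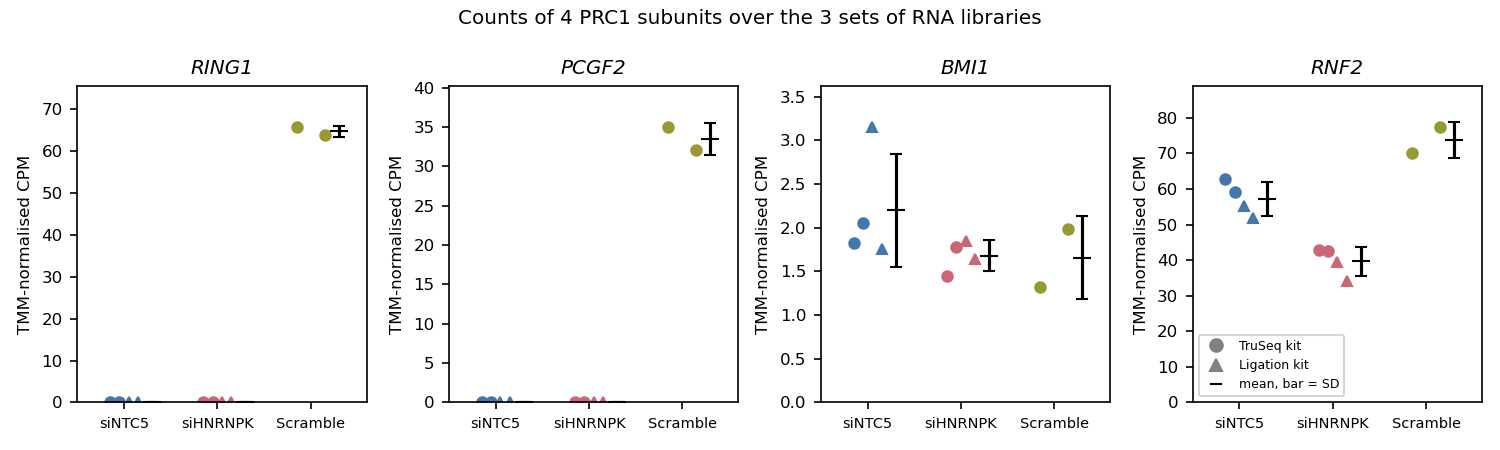
TMM-normalised CPM (y axes, from 0) of RING1, PCGF2, BMI1 and RNF2 in siNTC5, HNRNPK siRNA and Scramble libraries, scaled over all 10, with 1 point per library and the mean with SD beside them. RING1 and PCGF2 are at 0 in 8 libraries and at 63.8 to 65.7 and 32.1 to 35.0 CPM in Scramble, while RNF2 is counted in all 3 groups.

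The proteins that join these subunits were described by lists, with the background of 70.7% called in the same comparison. Of 10 canonical partners (other CBX proteins, polyhomeotic and SCM-type proteins), 9 passed, 5 higher and 4 lower, with a median of 0.05. SCMH1 went from 33.7 ± 2.57 to 14.7 ± 2.37 CPM (-1.20 on the log2 scale; SD over 4 libraries). CBX7 went from 19.7 ± 0.81 to 9.72 ± 1.03 CPM (-1.02), PHC2 fell by 0.64 and SCML1 rose by 0.83. CBX2, whose gene neighbours CBX8, fell by 0.46. These genes moved in both directions, and PHC1 (-0.06) did not pass.

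RYBP and YAF2, the paralogous proteins that take the CBX place in variant complexes, were both higher than in siNTC5, by 0.36 and 0.43. Neither passed in the TruSeq libraries (0.36 and 0.26, adjusted p = 0.0648 and 0.146). RYBP turned direction when the Scramble libraries were added to the controls (-0.88, adjusted p = 0.410). It stood at 79.2 and 87.7 CPM in Scramble against 7.64 to 10.4 CPM in siNTC5.

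Among 5 partners of PCGF1, 4 passed: the corepressor BCOR rose by 0.68 (41.1 ± 5.42 to 65.6 ± 5.13 CPM), SKP1 by 0.42 and the ubiquitin protease USP7 by 0.29, while KDM2B, which binds unmethylated CpG, fell by 0.59 (71.1 ± 4.39 to 47.0 ± 1.60 CPM). The 7 partners of PCGF3 and PCGF5 were less fully counted. AUTS2 was at 0 in all 10 libraries, and CSNK2B, the casein kinase 2 regulatory subunit, had 1 to 4 counts in each of the 8 libraries but 5842 and 6235 in Scramble. Of the 5 tested, DCAF7 fell by 0.71 (289 ± 14.5 to 177 ± 8.98 CPM), FBRSL1 fell by 0.38 and CSNK2A1, a catalytic subunit, rose by 0.35, with a median of -0.05. FBRSL1 did not pass without the kit term (adjusted p = 0.0885).

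All 9 partners of PCGF6 passed, 6 higher and 3 lower, with a median of 0.22, but 6 passed without the kit term and 5 with Scramble added to the controls. MGA, the DNA-binding scaffold of that complex, rose from 93.5 ± 4.56 to 149 ± 6.27 CPM (0.67) and L3MBTL2 rose by 0.41. HDAC1, a histone deacetylase shared with other complexes, fell from 311 ± 15.5 to 197 ± 9.87 CPM (-0.66), and TFDP1 fell by 0.43. TFDP1 did not pass with Scramble added to the controls (-0.23, adjusted p = 0.338).

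Of 13 genes of the enzymes that remove H2A ubiquitin and their cofactors, 12 were tested and 10 passed, 8 higher and 2 lower, with a median of 0.29. ASXL2 (0.67), USP16 (0.64), BAP1 (0.60) and MBD6 (0.49) were higher, and ASXL3 was at 0 in all 8 libraries. Of 13 PRC2 genes, which place H3K27me3, 12 were tested and 8 passed, 3 higher and 5 lower, with a median of -0.03, and 4 passed with Scramble added to the controls. MTF2 rose by 0.56, while PHF1, PHF19 and RBBP7 fell by 0.45, 0.45 and 0.33. PHF1 did not pass in the TruSeq libraries (adjusted p = 0.154), with Scramble added (-1.65, adjusted p = 0.136) or without siNTC5 replicate 2 (-0.34, adjusted p = 0.0516). The core subunits EZH2 (0.00), EED (-0.02) and SUZ12 (-0.02) did not pass against siNTC5. Against Scramble, 11 of the 13 PRC2 genes passed after knockdown, 7 higher and 4 lower, where 81.2% of all tested genes passed. All 13, the core subunits included, differed between Scramble and siNTC5, 4 higher and 9 lower in Scramble, where 69.3% of all tested genes differed.

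Of 8 genes known as Polycomb targets, GATA4 and SOX17 were at 0 in all 10 libraries, and 4 were tested, of which 3 passed, all higher. PAX6 rose from 3.63 ± 0.27 to 9.63 ± 0.78 CPM (1.41), GATA6 by 0.64 and CDKN2B by 0.49, and CDKN2A (0.16) did not pass. CDKN2B did not pass with Scramble added (0.25, adjusted p = 0.357). All 4 tested genes were also higher in Scramble than in siNTC5, with a median of 0.89. Against Scramble, 1 was higher after knockdown, 1 was lower and 2 did not pass, with a median of -0.01. The 4 tested genes had 0.0% of the gene body inside H3K27me3 domains, both in control and after knockdown. The nearest such domain lay 12.0 kb from PAX6 in control and 2.0 kb after knockdown, and 12.5 kb and 2287.5 kb from GATA6. CCND2, GATA4 and SOX17, which were not tested, had 100%, 94.0% and 100% inside such domains in both lists.

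**Figure D4:**
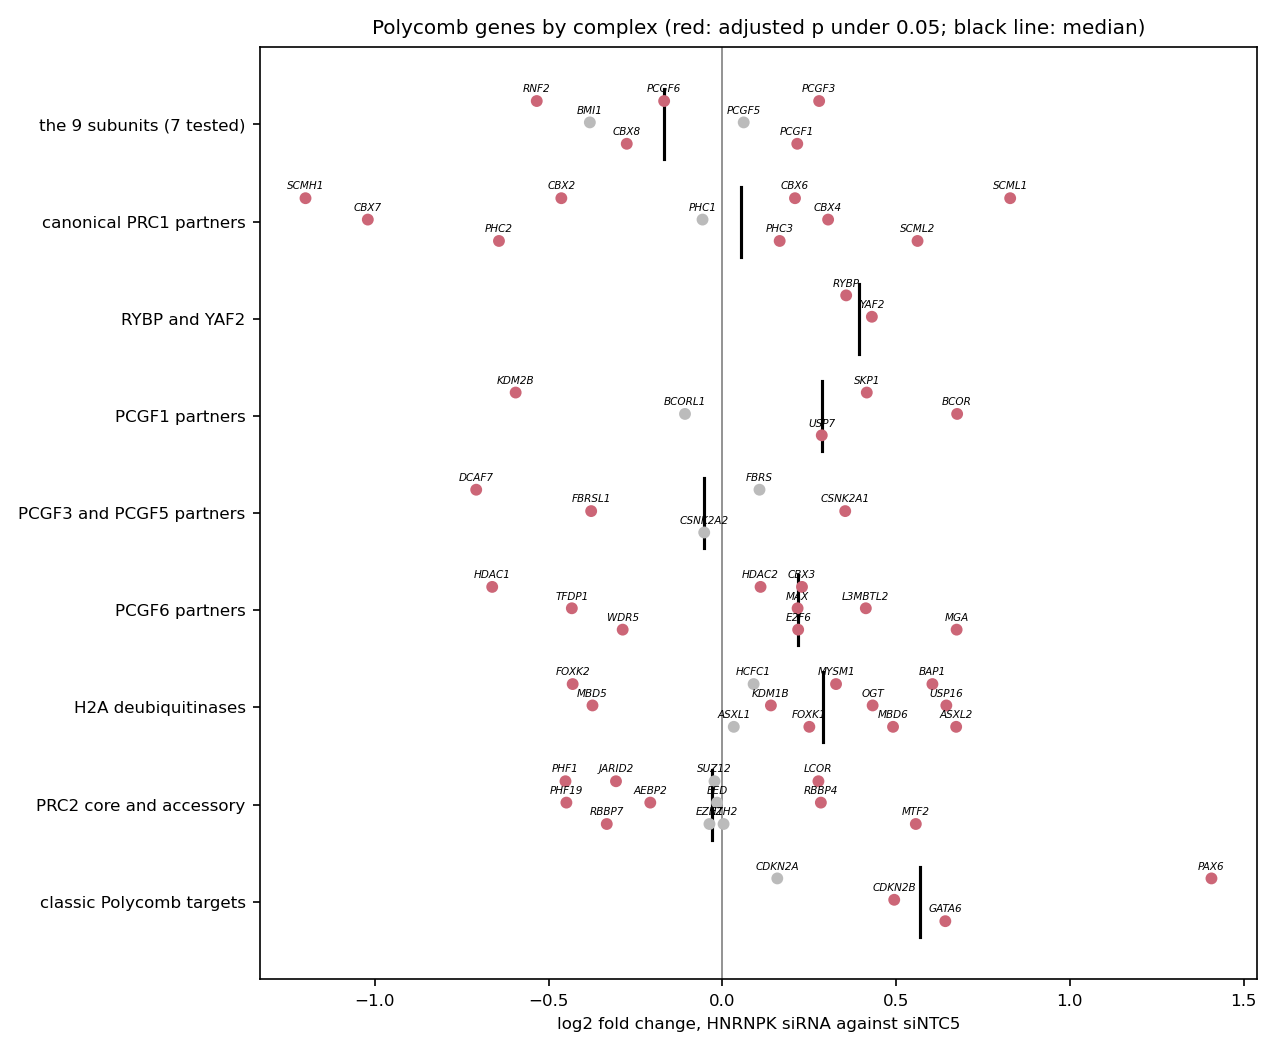
Log2 fold change after HNRNPK siRNA against siNTC5 (x axis) of each tested gene, by list (y axis), with red points for an adjusted p under 0.05 and a black line at each list's median. The PCGF6 partners all pass in this fit, with HDAC1 at -0.66 and MGA at 0.67 as their ends, and the core PRC2 genes EZH2, EED and SUZ12 lie at 0.00, -0.02 and -0.02.

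Among 9999 other genes with an average log2 CPM of at least 3, those whose log2 CPM ran most like PCGF3 over the 8 libraries were ST6GALNAC2 (Pearson r = 0.9948), TRIM2 (0.9939) and LRATD2 (0.9905). Their log2 fold changes after knockdown were 1.01, 0.48 and 0.54, and 541 genes had an r over 0.9 with PCGF3. For PCGF5 they were VTA1 (0.9824), MRPS17 (0.9819) and UBE2K (0.9817), and 129 genes had an r over 0.9. The 8 points share kit and treatment, so these values are descriptions.

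The domain lists place the subunit genes in chromatin, without replicates. At least 50% of the gene body was inside a domain for 2 of the 9 genes, CBX8 and PCGF3, and the other 7 lay in none of the 7 lists. By single list, the share of tested protein-coding genes ran from 1.26% (control H3K9me2) to 10.0% (control H3K27me3). The share inside at least 1 of the 7 lists was not computed, so 2 of 9 has no background to be set against. CBX8 (chr17:79792132-79797077) was wholly inside a control H3K27me3 domain of 740 kb (chr17:79070001-79810000), to which the authors gave a score of 2.15. The domain called there after knockdown was 645 kb long (chr17:79075001-79720000, score 2.37) and ended 72.1 kb short of CBX8. It covered 87.2% of the control domain, so most of the block was called in both lists. CBX2 was inside the control domain and outside the knockdown one in the same way. In these lists 10.0% of 12662 tested protein-coding genes were inside control H3K27me3 domains and 8.65% inside those of the knockdown. CBX8 and CBX2 were both lower in RNA after knockdown than in siNTC5. They are the 2 lower ones of the 4 tested genes inside the control domain, where 1 was higher. Against Scramble, CBX8 did not pass (edgeR adjusted p = 0.112). CBX2 stood at 46.5 and 49.5 CPM in Scramble and at 52.3 to 60.3 CPM after knockdown.

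PCGF3 (chr4:705832-770089) was wholly inside a lamin B1 domain of 535 kb called after knockdown (chr4:505001-1040000). Its score of 0.60 was below that list's median of 0.76 and above its minimum of 0.48. No control lamin B1 domain overlapped it, and the nearest one ended 270.8 kb from the gene. Lamin B1 domains held 3.01% of tested protein-coding genes in control and 2.61% after knockdown. The promoter of PCGF3 printed above lies in this domain. Of the 12 tested genes in it, 2 were higher after knockdown, PCGF3 among them, 3 were lower and 7 did not pass, with a median log2 fold change of -0.16. The other lists left PCGF3 outside, H3K27me3 domains ending 25.8 kb away in control and 30.8 kb away after knockdown.

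**Figure D5:**
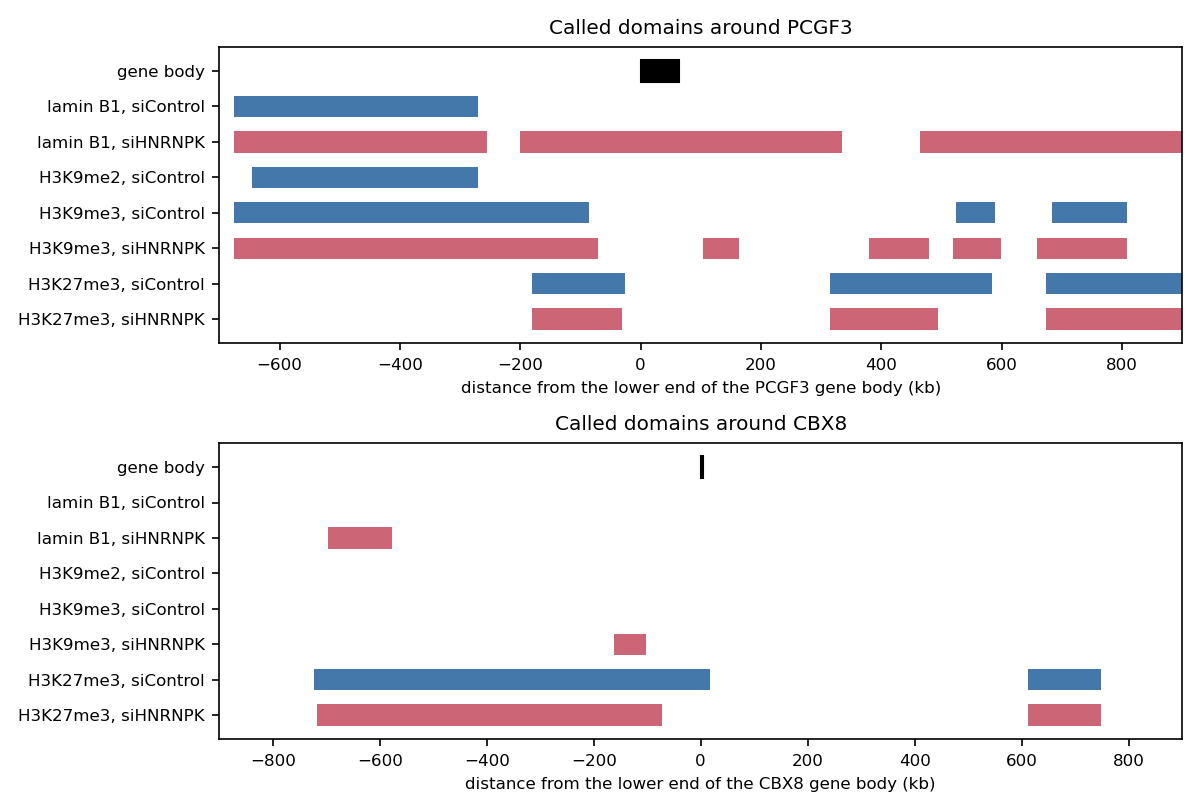
Called domains around PCGF3 and CBX8 by list (y axis), with control lists in blue, knockdown lists in red and the gene body in black, against the distance from the lower end of the gene body in kb (x axis). PCGF3 lies under a lamin B1 domain of 535 kb in the knockdown list alone, and CBX8 under an H3K27me3 domain in the control list alone.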

How the data were processed

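RNA counts of HCT116 cells were read from the deposited tables, which hold raw counts per gene symbol, and the domains from the authors' deposited lists, whose score is the authors' own value for a domain. Per the submitters' processing notes, RNA reads went through STAR 2.7.1a and featureCounts (Subread 2.0.6 for the siNTC5 and HNRNPK libraries), and chromatin reads through fastp 0.23.2, Bowtie2 2.5.1 and deepTools 3.1.3, on hg38 (with hg19 also named for Scramble). Whether a list pooled libraries is not given in the sources used here. Counts were tested with edgeR 4.0.16 (R 4.3.3; TMM scaling, filterByExpr, kit and treatment terms, quasi-likelihood test, Benjamini-Hochberg adjustment over all tested genes, threshold 0.05), on the 8 libraries of a single table or on the 25527 names shared by all tables for comparisons with Scramble. The code was tested on simulated counts in which few genes changed and no kit effect was put in. Most tested genes passed in the real data, so the simulation does not check the scaling in that setting.

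The members and lists were chosen with earlier results of these data known. Named genes are the 9 members, HNRNPK, up to 4 genes per list with the largest significant change, list genes at 0 and the genes most like PCGF3 and PCGF5; CBX2, PHC1, CDH1, CDX2, VIL1, CSNK2B, CDKN2A, the core PRC2 genes, LBX2-AS1 and the neighbours of RING1 fall outside that rule and were chosen after their values were seen. Replicate numbers were checked as pairs: deviations from the group means correlated at 0.104, 0.374, 0.292 and 0.232, and after removing the kit at -0.170, -0.158, -0.276 and -0.244. Removing kit and group means from so few libraries itself pushes the values after removing the kit below 0, so they cannot show whether the numbers are pairs. The replicate numbers lie within kits. Alternatives were other scalings, DESeq2 1.42.0, no filter, no kit term, a replicate block, each kit alone, each library left out, Scramble as added control and, for domains, other overlap rules. A comparison of protein sequences was not made, and levels were not compared between genes.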

Additional observations from a re-analysis of the deposited data

How the results depend on the processing

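RNF2 and PCGF3 kept their direction and stayed past the threshold in all 17 alternatives of the comparison with siNTC5. The count of subunits past the threshold, 5, was 2 without the kit term, 2 in the TruSeq libraries, 3 in the Ligation libraries and 2 with the Scramble libraries added to the controls, and it ran from 3 to 4 when single libraries were left out. The causes were not tested, and the kit and left-out fits hold fewer libraries. With the replicate block in place of the kit, as a paired analysis, it was 5, with 10208 genes called, and the block changed no call of a subunit. Genes past the threshold for the kit interaction were 239 with no filter. For Scramble against siNTC5 the count of 6 ran from 2 to 5 when single libraries were left out, with 2 without Scramble replicate 2. Leaving out the names at 0 in all 8 libraries, an alternative chosen after seeing the data, gave 3 there and 2 for knockdown against Scramble. RING1 and PCGF2 were then not tested, and PCGF6 no longer passed for Scramble against siNTC5. Knockdown against Scramble, with 4, gave 6 with upper-quartile scaling and 6 with no filter. With Scramble added to the controls the called PCGF6 partners went from 9 to 5, PRC2 genes from 8 to 4 and canonical partners from 9 to 6. RYBP turned to -0.88 with Scramble added. Members inside domains stayed at 2 with any overlap, with the gene midpoint and with domains of at least 100 kb. Depth limits BMI1, with 20 to 49 counts a library.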
